A study of Mus musculus with 8 samples.

Results

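The genes of the mitochondrial respiratory chain were described in haematopoietic stem cells (HSCs) sorted from mouse bone marrow by the activity of autophagy, the process by which a cell digests its own components. Members were the rows of the deposited tables whose symbol starts with that of a subunit of complexes I to IV or of ATP synthase (complex V), in the nuclear or the mitochondrial genome, with rows named as pseudogenes (-ps) left out. The rule took 107 of 19909 genes, of which 94 are nuclear and 13 are all the protein-coding genes of the mitochondrial genome. Of the nuclear members, 78 are subunits, 9 are assembly factors whose symbols share the prefix (Ndufaf1 to Ndufaf8 and Cox7a2l) and 7 are paralogues of subunits (Cox4i2, Cox6b2, Cox6c2, Cox7a1, Ndufa11b, Ndufb4c and Ndufs6b). By complex, the 78 nuclear subunits comprise 37 of complex I, 4 of complex II, 9 of complex III, 11 of complex IV (Ndufa4 included) and 17 of complex V.

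All mice were Gfplc3/Gfplc3, that is, they carried a reporter of green fluorescent protein (GFP) fused to the autophagosome protein LC3, which is lost as autophagy proceeds. AThi HSCs were the third of HSCs with the lowest GFP in old mice (over 24 months of age). ATlo HSCs were the third with the highest GFP in old mice, paired with AThi by the labels, with 3 libraries each. HSCs of young mice (8 to 12 weeks) were not fractionated and gave 2 libraries, so in any comparison with them the gate and the age cannot be told apart. Cells were taken at steady state, and about 10000 HSCs went into each RNA preparation. Libraries are named here by their group and the tag in the column header, which is O10, O11 or O12 in both old fractions and D11 or D12 in young HSCs. The labels call the AThi and ATlo samples paired but do not explain the tags, so libraries of the old fractions with the same tag are read here as coming from the same mouse. Nothing in the labels ties the tags to the 2 sort days.

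The respiratory chain passes electrons from NADH (complex I) or succinate (complex II) through coenzyme Q, complex III and cytochrome c to oxygen at complex IV, and complexes I, III and IV pump protons whose return through complex V makes ATP. Complex II is built from nuclear genes only, whereas the other complexes combine nuclear subunits, made in the cytosol, with a few core subunits read from mitochondrial DNA. HSCs in the quiescent state are known for low mitochondrial activity and a reliance on glycolysis, and clearance of mitochondria by autophagy is known as one of the ways they keep it low.

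Sequences upstream of nuclear subunit genes are shown because these genes are known to share binding motifs of nuclear respiratory factor 1 (NRF1) and of ETS factors such as GABP. The windows run from 250 bases before to 50 after the annotated start, from RefSeq on build GRCm38.p6, and 65 of the 78 nuclear subunits were matched to one. Each is printed on the strand of its gene with motif matches in capitals: GCGCA, any base and GCGC in a row for NRF1, CCGGAAG for ETS and CACGTG for the E-box, searched on both strands, so that a match can appear as its reverse complement. Atp5g3, Atp5k and Ndufb4 are 3 of the genes lower in AThi below, and Sdha is a subunit that did not pass the test. The window of Atp5g3 is at chr2:73911277-73911576, that of Atp5k at chr5:108434350-108434649, that of Ndufb4 at chr16:37654319-37654618 and that of Sdha at chr13:74350191-74350490, all on the minus strand.
Atp5g3: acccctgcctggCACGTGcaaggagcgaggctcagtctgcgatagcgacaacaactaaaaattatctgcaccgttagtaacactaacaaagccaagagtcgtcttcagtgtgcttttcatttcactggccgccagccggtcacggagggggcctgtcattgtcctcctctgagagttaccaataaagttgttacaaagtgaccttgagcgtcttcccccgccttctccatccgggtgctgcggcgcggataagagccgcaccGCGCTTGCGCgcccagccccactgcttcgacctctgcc
Atp5k: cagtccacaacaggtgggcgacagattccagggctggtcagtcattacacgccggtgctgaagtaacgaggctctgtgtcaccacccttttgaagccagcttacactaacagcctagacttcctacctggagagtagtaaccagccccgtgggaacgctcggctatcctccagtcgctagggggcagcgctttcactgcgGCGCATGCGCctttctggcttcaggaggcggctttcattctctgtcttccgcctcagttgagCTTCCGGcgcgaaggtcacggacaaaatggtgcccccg
Ndufb4: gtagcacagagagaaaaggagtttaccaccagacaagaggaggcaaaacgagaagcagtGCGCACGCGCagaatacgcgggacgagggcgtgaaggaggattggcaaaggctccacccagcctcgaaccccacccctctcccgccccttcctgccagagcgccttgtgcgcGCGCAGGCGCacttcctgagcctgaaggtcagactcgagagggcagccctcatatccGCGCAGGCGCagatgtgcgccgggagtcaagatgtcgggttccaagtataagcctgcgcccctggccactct
Sdha: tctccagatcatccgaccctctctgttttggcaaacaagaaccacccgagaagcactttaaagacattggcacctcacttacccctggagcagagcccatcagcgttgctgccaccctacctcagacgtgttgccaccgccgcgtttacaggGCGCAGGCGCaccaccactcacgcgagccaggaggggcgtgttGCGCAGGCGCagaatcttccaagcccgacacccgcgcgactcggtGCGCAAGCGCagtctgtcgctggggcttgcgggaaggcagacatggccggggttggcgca

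A gene counted as having a motif if any of its windows matched, and the 65 subunits had 70 windows. The NRF1 motif was found for 17 of the 65 nuclear subunits (26.2%), against 1206 of 10927 tested genes with a window (11.04%). The ETS motif was in 17 of 65 (26.2%), against 19.5% of all. The longer YY1 motif AAGATGGCG was in 10.8%, against 3.42% of all, the CRE motif TGACGTCA in 6.15%, against 3.44%, and the E-box in 9.23%, against 11.5%. The windows of Ndufb4 and Sdha each hold 3 NRF1 matches, although only Ndufb4 passed the test described below. Among the 23 windowed subunits called lower in AThi against ATlo, 5 had the NRF1 motif and 9 the ETS motif; among the 42 not called, 12 had the NRF1 motif and 8 the ETS motif. These matches describe letters in a window and not binding.

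The 8 libraries held between 33960216 and 61341946 reads assigned to genes, with the 3 ATlo libraries the deepest (54512285 or more). Ribosomal RNA (the cytosolic Rn18s and both mitochondrial rRNAs) made up 27.1% to 36.1% of the reads. All 9 HSC markers listed, among them Procr, Slamf1, Kit, Ly6a and Hlf, were measured, with a summed level of 128550 to 151001 normalized counts in AThi, 96647 to 117719 in ATlo and 131777 and 135389 in young HSCs. Of the 9, 3 were higher in AThi than in ATlo in the authors' deposited table, where 3.47% of all tested genes were higher and 4.43% lower. No listed marker of multipotent progenitors, erythroid, megakaryocytic, granulocytic, monocytic, B, T or NK, mast or stromal cells passed the test in either direction. Many had no adjusted p and could not pass. One was given for 3 of 5 progenitor, 4 of 9 erythroid, 7 of 7 megakaryocyte, 7 of 8 granulocyte and 4 of 6 monocyte markers. For B cells it was 1 of 9, for T and NK cells 2 of 8, for mast cells 2 of 4 and for stromal cells 1 of 5. The libraries tagged 12 stood apart: 5 measured B cell markers summed to 23877 in AThi O12, 10117 in ATlo O12 and 10767 in young D12, against 654 to 992 in the other 5 libraries, where Cd79a was at 0 in AThi O10, ATlo O11 and young D11. Results are therefore also given without these 3 libraries. The X-inactivation transcript Xist also set the libraries tagged 12 apart, at 5810 normalized counts in AThi O12, 2747 in ATlo O12 and 3869 in young D12. It stood at 33 to 171 in the old libraries tagged O10 and O11, and at 97743 in young D11. The young libraries thus differed widely from each other in Xist, and its part in the comparisons was not tested.

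Nuclear members were a smaller part of the transcripts in AThi than in ATlo, while the mitochondrial members overlapped between the fractions. Nuclear members took 0.624%, 0.663% and 0.655% of the reads outside mitochondrial and ribosomal RNA genes in AThi O10, O11 and O12, against 0.785%, 0.821% and 0.796% in ATlo and 0.694% and 0.712% in young HSCs. All 3 AThi libraries lay below both young libraries, and all 3 ATlo libraries lay above them. Mitochondrial members took 1.86%, 1.43% and 2.05% of all reads in AThi, against 1.92%, 1.35% and 2.09% in ATlo and 1.71% and 2.08% in young HSCs. The mitochondrial share overlapped between the groups and was lowest for tag O11 in both old fractions, which are read here as 1 mouse. It takes the genes' own rows only and leaves out the reads in rows of their nuclear copies, described below. Those reads remain among the reads outside mitochondrial and ribosomal RNA genes.

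**Figure D1:**
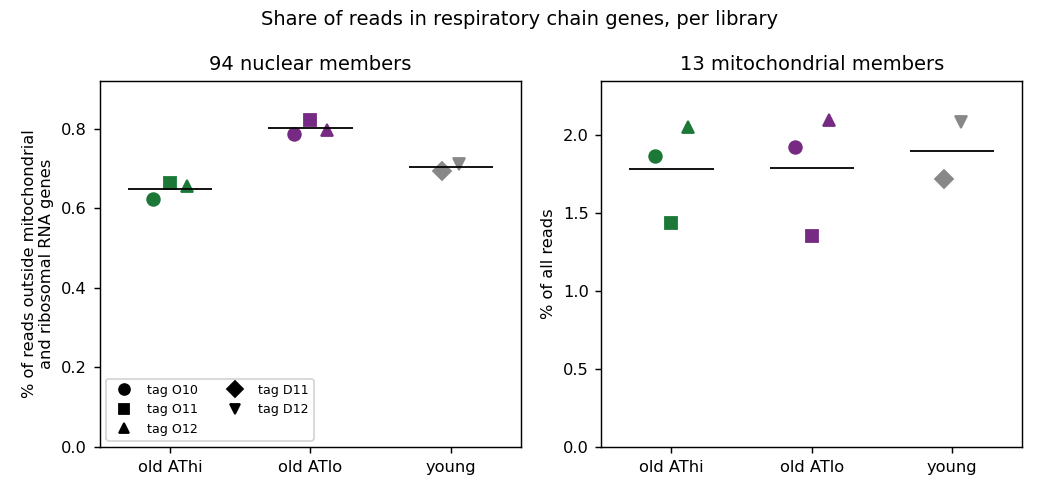
Share of reads in the 94 nuclear members (left; % of reads outside mitochondrial and ribosomal RNA genes) and in the 13 mitochondrial members (right; % of all reads), 1 point per library with its tag and a line at the group mean. The nuclear share separates old AThi (0.624% to 0.663%) from old ATlo (0.785% to 0.821%) with young HSCs between. The mitochondrial share overlaps in all 3 groups and leaves out the rows of nuclear copies of these genes.

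In normalized counts, which are reads divided by the authors' factor for each library, the 78 nuclear subunits summed to 179411, 185485 and 186089 in AThi, against 225617, 242308 and 229333 in ATlo and 195424 and 200481 in young HSCs. Within each tag, read here as 1 old mouse, the AThi sum was 79.5% (O10), 76.5% (O11) and 81.1% (O12) of the ATlo sum. For the 13 mitochondrial members, by their own rows without nuclear copies, the same figures were 106%, 109% and 98.3%. The nuclear sum of AThi was thus below that of ATlo in 3 of 3 pairs of libraries with the same tag, and the mitochondrial sum in 1 of 3. Since these are bulk libraries, fewer cells of a type and less RNA per cell cannot be told apart.

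The first question was whether autophagy-high and autophagy-low HSCs of the same old mice differed in respiratory chain transcripts. Nuclear subunits were lower in AThi. In the authors' deposited table, from a DESeq2 Wald test with Benjamini-Hochberg adjustment over all genes, 28 of the 103 members with an adjusted p were lower in AThi at a threshold of 0.05 and 0 were higher, where 4.43% of all tested genes were lower and 3.47% higher (7.9% in either direction). Of the 28, 27 were among the 78 nuclear subunits (34.6%), 1 was the assembly factor Ndufaf2, and none was among the 13 mitochondrial genes. The deposited fit has no term for the mouse, so these calls do not use the pairing. The median log2 fold change, AThi over ATlo, was -0.37 for nuclear subunits in the authors' deposited table, between -0.93 and 0.08, against 0.02 for all tested genes. The fold change was below zero for 76 of the 78, the exceptions being Ndufs4 and Ndufc2, named after their values were seen. In 51 of the 78 every AThi library lay below every ATlo library and in 0 every one lay above, against 11.6% and 10.7% of tested genes. At an unadjusted p below 0.05, 45 members were lower and 1 higher, where 9.43% of all tested genes were lower and 10.1% higher.

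The number of calls changed with the test and with the libraries. On the recovered reads, the quasi-likelihood test of edgeR called 2 members, Atp5g3 and Cox7b (adjusted p 0.020 and 0.031), and 280 genes in all against the 1414 of the authors' deposited table. Leaving out 1 library in turn gave 9 members lower without ATlo O12, 12 without AThi O11 or ATlo O11, 15 without AThi O10, 17 without AThi O12 and 19 without ATlo O10, and leaving out the 3 libraries tagged 12 gave 6. With the mouse as a replicate block in the 6 old libraries, DESeq2 called 23 of the 28 and edgeR 2. All 28 members stayed below zero in every one of these refits. They were picked from the same libraries, so the kept sign is not independent support.

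**Figure D2:**
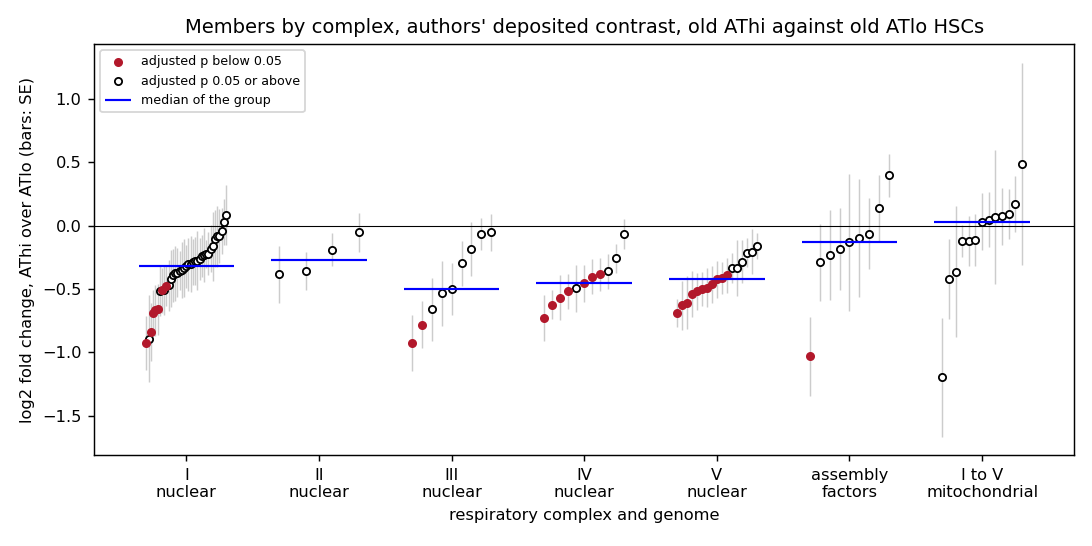
Log2 fold change of each member with an adjusted p, AThi over ATlo in the authors' deposited table, by complex and genome (bars are the standard error, red points have an adjusted p below 0.05, blue lines are group medians). Nuclear subunits of complexes I, III, IV and V lie mostly below zero, with medians between -0.32 and -0.50. The 4 subunits of complex II also lie below zero (median -0.27, none called), whereas the mitochondrial genes scatter around 0.03 with none called.

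Complex I takes electrons from NADH. Of its 37 nuclear subunits, 7 were lower in AThi and 0 higher in the authors' deposited table, with a median log2 fold change of -0.32. By place in the complex, 5 of 11 accessory subunits of the Ndufb series, which sit in the membrane arm, were lower (median -0.51). Of the other 19 accessory subunits 1 was lower (median -0.28), as was 1 of 7 core subunits of the hydrophilic arm (median -0.35). The difference between these classes was not tested. Ndufb7 (ENSMUSG00000033938, 8:83566671-83571626) had 392, 578 and 517 normalized counts in AThi, against 846, 1032 and 952 in ATlo and 781 and 798 in young HSCs. Every AThi library was below every other library. The authors' deposited table gives a log2 fold change of -0.93 (SE 0.21, adjusted p 0.00070), with Uqcrb the largest fall among the 78 nuclear subunits.

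Ndufb6 followed the same order, with 310.3, 294 and 412 normalized counts in AThi, against 607, 591 and 627 in ATlo and 532 and 530.1 in young HSCs. The other Ndufb subunits called were Ndufb1, Ndufb4 and Ndufb8, with log2 fold changes of -0.69, -0.66 and -0.51 in the authors' deposited table (adjusted p 0.0044, 0.019 and 0.045 by DESeq2). Ndufb4 shares 37.0% of the 50-base windows of its transcripts with other genes, among them its paralogue Ndufb4c, so reads could be split between them. Ndufc1, another membrane-arm subunit, had a log2 fold change of -0.67 (SE 0.20, adjusted p 0.016, authors' deposited table). Ndufs1, the largest subunit of the hydrophilic arm, was below ATlo in every AThi library but did not pass (log2 fold change -0.51, adjusted p 0.080, authors' deposited table). Ndufv1, Ndufs3 and Ndufs8, which also sit in the hydrophilic arm, had log2 fold changes between -0.37 and -0.04 in the authors' deposited table, and the acyl carrier protein Ndufab1 one of -0.42, and none of them passed.

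Of the 8 complex I assembly factors of the Ndufaf series, Ndufaf2, which binds a late assembly intermediate, was lower in AThi. It had 581, 295 and 364 normalized counts in AThi, against 804, 708 and 1019 in ATlo and 386 and 542 in young HSCs. The AThi and young libraries overlapped and all were below ATlo. By the authors' deposited table its log2 fold change was -1.03 (SE 0.31, adjusted p 0.016), the lowest of all nuclear members with a base mean of 100 or more. The other 7 lay between -0.29 and 0.14 and none passed.

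Complex II, succinate dehydrogenase, is the one complex shared with the tricarboxylic acid cycle and has no mitochondrial gene. None of its 4 subunits passed the test in AThi against ATlo. The flavoprotein subunit Sdha had 6947, 8491 and 8261 normalized counts in AThi, against 10039.7, 8752 and 8229.7 in ATlo and 7372 and 8292 in young HSCs, so the groups overlapped. The authors' deposited table gives log2 fold changes of -0.19 for Sdha, -0.38 for the iron-sulfur subunit Sdhb and of -0.36 and -0.05 for the membrane anchors Sdhc and Sdhd (adjusted p 0.47, 0.35, 0.13 and 0.91, DESeq2). In Sdhc alone of the 4 every AThi library was below every ATlo library. All 4 fold changes were below zero, with a median of -0.27. The 4 summed to 14836.5, 15481 and 15444 normalized counts in AThi, against 17945, 18329 and 16369 in ATlo and 16241 and 17093 in young HSCs. In this sum the old fractions did not overlap.

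Complex III hands electrons from coenzyme Q to cytochrome c. Of its 9 nuclear subunits 2 were lower in AThi in the authors' deposited table and the median log2 fold change was -0.50. Both were small accessory subunits. Uqcrb, which contributes to the coenzyme Q site, had 751, 551 and 958 normalized counts in AThi, against 1399, 1490.1 and 1405 in ATlo and 845 and 902 in young HSCs. Uqcr10 had 1446, 1588 and 1421 in AThi, against 2184, 2600.0 and 2886 in ATlo and 1571 and 2259.9 in young HSCs. Neither overlapped between the old fractions, and both overlapped between AThi and young HSCs. Their log2 fold changes in the deposited contrast of the authors were -0.93 for Uqcrb (SE 0.22, adjusted p 0.0012) and -0.78 for Uqcr10 (SE 0.19, adjusted p 0.0010). Uqcrb shares 43.4% of its 50-base windows with other genes.

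The catalytic subunits of complex III, cytochrome c1 (Cyc1) and the Rieske protein (Uqcrfs1), had log2 fold changes of -0.66 and -0.30 in the authors' deposited table and did not pass (adjusted p 0.084 and 0.36, DESeq2). Cyc1 had 1051, 935 and 1092 normalized counts in AThi, against 1172, 2307 and 1388 in ATlo and 1222 and 1224 in young HSCs, with ATlo O11 far above the rest. The small subunit Uqcrq, at -0.54, did not pass either (adjusted p 0.21, authors' deposited table). The core proteins Uqcrc1 and Uqcrc2 were at -0.19 and -0.05 in the authors' deposited table, with overlapping libraries.

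Complex IV, cytochrome c oxidase, had the lowest nuclear sum relative to ATlo among the 5 complexes. Its 11 nuclear subunits summed to 30911, 32695 and 31779 normalized counts in AThi, against 41212, 44091 and 41667 in ATlo and 35556 and 34370 in young HSCs, so that AThi stood at 75.1% of the ATlo mean. Among the 11, 7 were lower in AThi in the authors' deposited table, with a median log2 fold change of -0.46, and in 10 of the 11 every AThi library was below every ATlo library. Cox7b (ENSMUSG00000031231, X:106015700-106022450), a small membrane subunit, had 2698, 2929.9 and 2965 normalized counts in AThi, against 4171, 4266 and 4801 in ATlo and 3332 and 3293 in young HSCs. The 3 groups did not overlap. Both tests called it, with a log2 fold change of -0.62 (SE 0.12, adjusted p 8.9e-06, authors' deposited table).

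Cox5a, a subunit on the matrix side, had 1694, 2209 and 2563 normalized counts in AThi, against 3344, 3841 and 3528 in ATlo and 2267 and 2864 in young HSCs. AThi and young HSCs overlapped, and ATlo stood above both (AThi over ATlo -0.73 on the log2 scale, SE 0.18, adjusted p 0.0022, authors' deposited table). Ndufa4, first assigned to complex I and now to complex IV, had 2879, 3473 and 3808 in AThi, against 4579, 4834 and 5145 in ATlo and 3958 and 4211 in young HSCs. Cox6c, Cox5b, Cox7c and Cox8a were the other subunits called, with log2 fold changes between -0.57 and -0.39 in the authors' deposited table. Cox6a1, Cox6b1 and Cox7a2 were also below ATlo in every AThi library and did not pass. The exception was Cox4i1, the common form of the subunit that binds ATP, which had 5855, 6199 and 5075 normalized counts in AThi, against 6337, 5868 and 5770.0 in ATlo and 4793 and 4756 in young HSCs. Its log2 fold change of -0.07 did not pass in the authors' deposited table (adjusted p 0.83, DESeq2), and its AThi libraries were all above the young ones. Its tissue-restricted paralogue Cox4i2 was at 2.2 to 53.4 normalized counts in all libraries, and Cox7a1, the muscle form of Cox7a2, at 1.04 to 42.9.

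Cox7a2l, which helps to join complexes III and IV into supercomplexes, had the opposite sign. It had 9069, 9839 and 7181 normalized counts in AThi, against 7390.3, 6731 and 5721 in ATlo and 9071 and 6960.1 in young HSCs. Across mice the old fractions overlapped, but within each mouse AThi was the higher one in 3 of 3. The log2 fold change, AThi over ATlo, was 0.39 (SE 0.17, adjusted p 0.14, authors' deposited table), and 0.39 with an adjusted p of 0.0041 in a DESeq2 refit with the mouse as a replicate block. In edgeR with the same block it did not pass (log2 fold change 0.38, adjusted p 0.12). Leaving out AThi O12 in the DESeq2 refit without the block also brought it past the threshold.

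**Figure D3:**
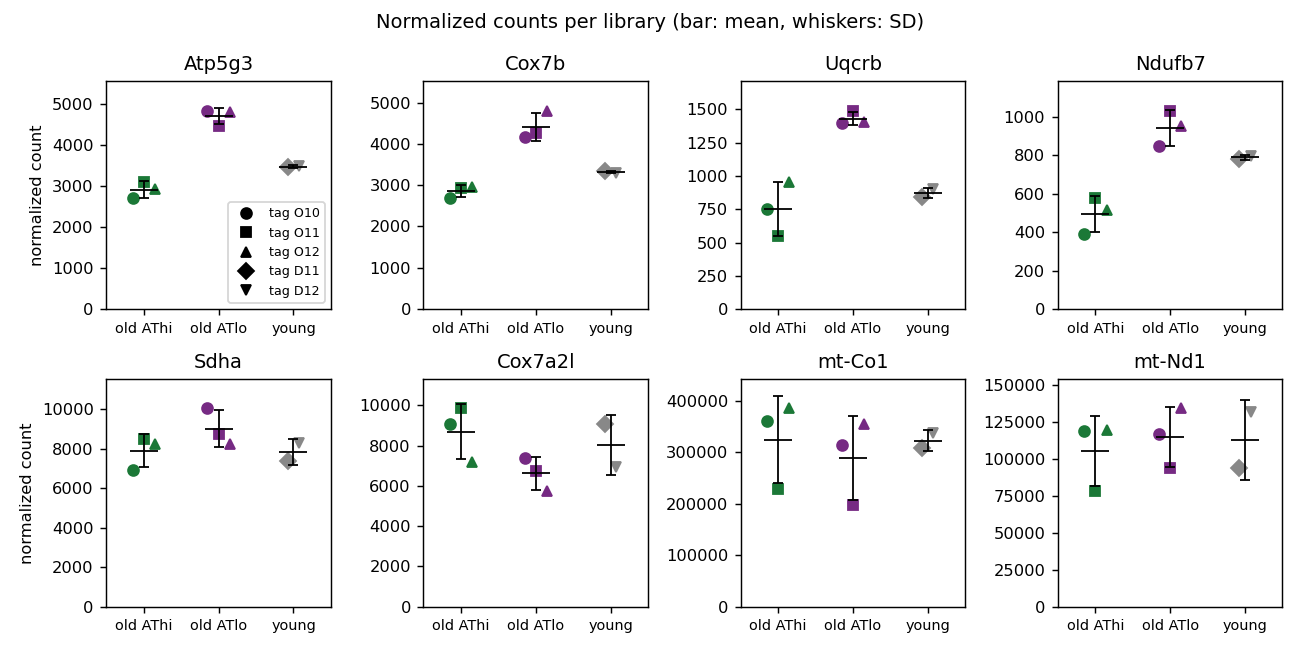
Normalized counts per library of 8 members (points, marked by tag), with the group mean and SD. Atp5g3, Cox7b, Uqcrb and Ndufb7 separate old AThi from old ATlo without overlap, Sdha and the mitochondrial genes mt-Co1 and mt-Nd1 overlap, and Cox7a2l has the higher mean in AThi.

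Complex V, ATP synthase, had the most calls. Of its 17 nuclear subunits, 11 were lower in AThi in the authors' deposited table, with a median log2 fold change of -0.42, and all 17 were below zero. Its nuclear subunits summed to 74531, 77545 and 78067 normalized counts in AThi, against 93813, 103063 and 96458 in ATlo and 82609 and 82461 in young HSCs. The membrane-embedded and stalk parts held most of the calls: 4 of 4 subunits of the peripheral stalk, 4 of 5 small membrane subunits and 2 of 3 genes for the c-ring, the rotor that protons turn, against 1 of 5 for the catalytic F1 head and central stalk. The difference between these parts was not tested.

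The member with the lowest adjusted p was Atp5g3 (ENSMUSG00000018770, 2:73908447-73911326), 1 of 3 genes for the same c-ring protein. It had 2706, 3111 and 2930.4 normalized counts in AThi, against 4836, 4475 and 4799.8 in ATlo and 3454 and 3494 in young HSCs. The 3 groups did not overlap, with young HSCs between the old fractions. In the contrast the authors deposited, the log2 fold change was -0.69 (SE 0.11, adjusted p 1.2e-07), and edgeR called it too. The second c-ring gene, Atp5g1, had 1314, 1311 and 1153 in AThi, against 1908, 1729 and 1769 in ATlo and 1944 and 1675 in young HSCs, and there ATlo and young overlapped. Atp5g1 was lower in AThi by a log2 fold change of -0.52 (SE 0.15, adjusted p 0.0091, authors' deposited table). The third, Atp5g2, overlapped between the groups and shares 87.4% of its windows with other genes, so its log2 fold change of -0.21 in the authors' deposited table is uncertain.

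Of the peripheral stalk, which holds the F1 head still, Atp5pb (subunit b) had 4984, 4878 and 5573 normalized counts in AThi, against 6261, 7653 and 7768 in ATlo and 4360.0 and 5897 in young HSCs. Atp5h, Atp5o and Atp5j, the other stalk subunits, had log2 fold changes of -0.41, -0.63 and -0.39 in the authors' deposited table (adjusted p 0.016, 0.020 and 0.048, DESeq2). All 4 kept the old fractions apart in every library. The small membrane subunits Atp5mpl, Atp5md, Atp5k and Atp5l had log2 fold changes between -0.61 and -0.42 in the authors' deposited table; Atp5l shares 84.8% of its windows with other genes and Atp5o 50.3%. Atp5e, the epsilon subunit of the central stalk, was lower too (log2 fold change -0.50, SE 0.13, adjusted p 0.0046, authors' deposited table).

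The catalytic subunits of the F1 head had the highest normalized counts of the nuclear members, not divided by length. Atp5b, the beta subunit, had 18373, 21500.5 and 21331 normalized counts in AThi, against 23874, 28934 and 24454 in ATlo and 21992 and 22449 in young HSCs. A log2 fold change of -0.34 missed the threshold in the authors' deposited table (SE 0.12, adjusted p 0.054) and passed in the DESeq2 refit with the mouse as a replicate block (adjusted p 0.0025), but not in edgeR with the same block (adjusted p 0.078). The alpha subunit, Atp5a1, had 17459.5, 17606 and 16561 in AThi, against 20398, 21322 and 18131 in ATlo and 19265 and 16173 in young HSCs. Both had every AThi library below every ATlo library. Atp5a1 had a log2 fold change of -0.21 in the authors' deposited table and did not pass (adjusted p 0.29, DESeq2), nor did Atp5c1 and Atp5d, the gamma and delta subunits (-0.16 and -0.28, authors' deposited table).

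The 7 paralogues were low: 5 of them had base means under 100 normalized counts, and 3 had an adjusted p. Cox6b2, known as the testis form of Cox6b1, had 252, 198 and 248 normalized counts in AThi, against 385, 439.8 and 352 in ATlo and 326 and 203 in young HSCs. It did not pass (log2 fold change -0.75, adjusted p 0.11, authors' deposited table).

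The 13 mitochondrial genes did not share the nuclear difference in their median. In the authors' deposited table their log2 fold changes, AThi over ATlo, had a median of 0.03, and 6 were below zero. They ran from -1.20 (mt-Atp8) to 0.49 (mt-Co2), with 0 called in either direction. Of all tested genes 7.9% were called, so 0 among 13 is near that share. In 0 of the 13 did the old fractions separate without overlap, against 11.6% (AThi below) and 10.7% (AThi above) of tested genes. Standard errors ran from 0.13 (mt-Nd3) to 0.80 (mt-Co2), so a fall like that of the nuclear subunits could go uncalled. Per 1000 bases of transcript and by each gene's own row, mt-Co1, the catalytic subunit of complex IV, had the highest mean level, 201214 normalized counts, followed by mt-Nd1 (115575), mt-Cytb (93836) and mt-Nd4 (90958), against 11933 for the highest nuclear subunit, Atp5b. This order leaves out the reads in nuclear copies described below, which hold nearly all of the counts of mt-Co2, mt-Co3 and mt-Atp6. mt-Co1 had 360457, 229009 and 385489 normalized counts in AThi, against 313541, 198269 and 354908 in ATlo and 308463 and 336870 in young HSCs. Tag O11 was the lowest in both old fractions, and AThi was higher within each mouse. mt-Cytb, the cytochrome b of complex III, had 119639, 84040.0 and 119223 in AThi, against 108454, 70353 and 134214 in ATlo and 98524 and 124337 in young HSCs.

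The complex I genes mt-Nd1, mt-Nd2, mt-Nd3, mt-Nd4, mt-Nd4l and mt-Nd5 had log2 fold changes between -0.12 and 0.09 in the authors' deposited table. mt-Nd6, the one protein gene on the other strand of the mitochondrial genome, was the most uneven of the complex I genes, with 16387, 16868 and 22017 normalized counts in AThi, against 39522, 11545 and 20043 in ATlo and 37217 and 20266 in young HSCs. No source used here says whether reads were counted by strand. The ATP synthase gene mt-Atp8 had 259, 199 and 368 normalized counts in AThi, against 664, 930.4 and 301 in ATlo and 528 and 205 in young HSCs. The authors' deposited table gives a log2 fold change of -1.20 (SE 0.47, adjusted p 0.096), and among the alternatives run it passed only when ATlo O12, or all 3 libraries tagged 12, was left out. It overlaps mt-Atp6, as mt-Nd4l overlaps mt-Nd4, so reads across each overlap belong to 2 genes.

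The rows of 4 mitochondrial genes were far lower than those of the other 9. mt-Co2, mt-Co3, mt-Atp6 and mt-Atp8 stood at mean levels of 1396, 589, 1791 and 432 normalized counts, although these genes are known to be read from the same long precursor as mt-Co1 and mt-Nd1. Every 50-base window of mt-Co2 (100%), and 99.9% of mt-Co3 and 99.5% of mt-Atp6, also occurs in an annotated copy of mitochondrial DNA in the nuclear genome. No window of mt-Atp8 does. The rows of those copies were high: Gm28661 and Gm13341 together averaged 178644 normalized counts for mt-Co2, Gm28437 163719 for mt-Co3 and Gm10925 201953 for mt-Atp6. The mitochondrial row thus held 0.776%, 0.359% and 0.879% of the summed counts of gene and copies, and 67.7% for mt-Co1 with Gm29216 and Gm13340.

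With the rows of the copies added, a sum chosen after the data were seen, the log2 ratio of the AThi mean to the ATlo mean was 0.07 for mt-Co2, against 0.49 for its own row. It was -0.04 for mt-Co3, against 0.07, and 0.06 for mt-Atp6, against -0.42. For mt-Nd3, of which 55.2% of the reads were in its own row, it was -0.14, against -0.12. Per 1000 bases, the mean sums were 299184 for mt-Atp6, 297195 for mt-Co1, 263216 for mt-Co2 and 209577 for mt-Co3, all above mt-Nd1. In the sums AThi and ATlo overlapped: mt-Co2 with its copies had 188123, 152833 and 206101 normalized counts in AThi, against 188066, 123882 and 208379 in ATlo.

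**Figure D4:**
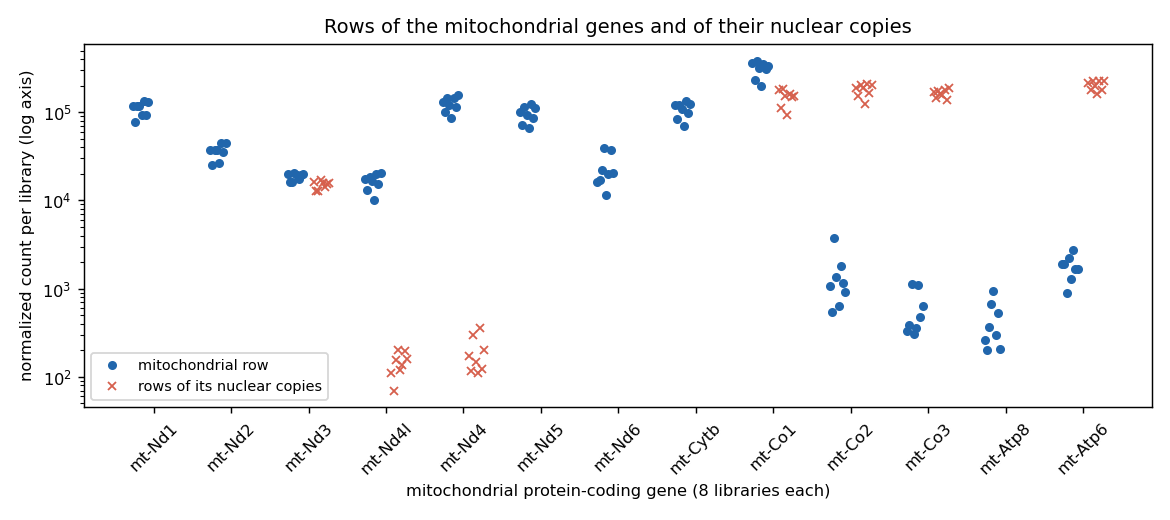
Normalized count per library on a log axis for each of the 13 mitochondrial protein genes (blue circles) and for the annotated nuclear copies that share its 50-base windows (red crosses), 8 libraries each. For mt-Co2, mt-Co3 and mt-Atp6 the copies hold nearly all of the counts, and for mt-Co1 and mt-Nd3 they hold a part.

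Some nuclear rows have the same limit. Of the pseudogene rows that the rule left out, Cox5b-ps had a log2 fold change of -0.74 (adjusted p 0.020, DESeq2) and Ndufs5-ps of -1.01 (adjusted p 0.045, DESeq2) in the authors' deposited table. Of their parents Cox5b passed, at -0.46 (adjusted p 0.033, authors' deposited table), and Ndufs5 did not, at -0.89 (adjusted p 0.090, authors' deposited table). Atp5g3 and Atp5mpl share 0% of their windows with any other gene and Cox7b 0.63%.

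The comparison with young HSCs placed the nuclear subunits of young mice between the old fractions more often than outside them. Of 78 nuclear subunits, the young mean lay between a lower AThi mean and a higher ATlo mean in 52, below both in 20 and above both in 6. This order was not counted over all genes, so it cannot be read as a trait of the subunits. Both contrasts with young HSCs share the same 2 young libraries and are not independent of each other. In AThi against young, the authors' deposited table had 1 member lower and 0 higher of 105, where 1.91% of all tested genes were lower and 3.13% higher (5.04% in either direction). That member was Atp5g1 (log2 fold change -0.52, SE 0.16, adjusted p 0.031, authors' deposited table), which edgeR did not call. No member was lower without AThi O10, AThi O11 or either young library, and 2 were without AThi O12. The count was 0 without the 3 libraries tagged 12 and 0 with scaling by total reads. The nuclear subunits had a median log2 fold change of -0.13 in that contrast of the authors' deposited table, against 0.00 for all genes. In 25 of the 78 every AThi library lay below both young libraries, and in 2 above, against 14.2% and 13.9% of tested genes.

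In ATlo against young, 3 members were higher and 0 lower of 104 in the authors' deposited table, where 2.37% of all tested genes were higher and 1.98% lower (4.34% in either direction). They were Atp5mpl (log2 fold change 0.76, SE 0.16, adjusted p 0.00020, authors' deposited table), Atp5g3 (0.44, SE 0.13, adjusted p 0.017) and Cox7b (0.41, SE 0.13, adjusted p 0.039). Atp5mpl, a small membrane subunit of ATP synthase, had 2609.9, 2512 and 2089 normalized counts in AThi and 3393, 3114 and 3428 in ATlo, against 1800.3 and 2100.4 in young HSCs. The count of 3 was 1 without ATlo O11 or ATlo O12, 0 without young D11, 1 without the 3 libraries tagged 12 and 6 with scaling by total reads. For Atp5mpl, ATlo stood above both other groups, and AThi O12 lay inside the young range. The nuclear subunits had a median of 0.24 in this contrast of the authors' deposited table, and in 39 of 78 every ATlo library lay above both young libraries, against 16.1% of tested genes. edgeR called 0 members in either contrast with young HSCs, where it called 240 and 130 genes in all. The mitochondrial genes had 0 calls in both contrasts of the authors' deposited tables.

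Markers of HSCs, markers of other cell types and cell cycle genes also moved in the contrasts with young HSCs, by the authors' deposited tables. Of all tested genes, 3.13% were higher and 1.91% lower in AThi against young, and 2.37% and 1.98% in ATlo against young. Of the 9 HSC markers, 2 were higher and 1 lower in AThi against young, and 1 higher and 2 lower in ATlo against young. In AThi against young, 2 of 3 multipotent progenitor markers with an adjusted p were lower (Flt3 and Cd34), and 2 of 7 megakaryocyte and 1 of 7 granulocyte markers were higher, while 16 of 20 cell cycle genes were lower. In ATlo against young, 5 of 7 megakaryocyte markers were higher (median log2 fold change 1.38 for the 7), as were 1 of 4 erythroid and 1 of 7 granulocyte markers and 7 of 20 cell cycle genes, and Flt3 was lower. The summed megakaryocyte markers still overlapped, at 26043 to 34218 normalized counts in ATlo, against 27199.7 and 28489 in young HSCs. Their part in the members' values was not tested.

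Genes that work with the chain were read from lists of other members of the pathway. In AThi against ATlo, 4.43% of all tested genes were lower and 3.47% higher. Of the lists below, 5% of carriers and coenzyme Q genes, 2.17% of other assembly factors and 8.57% of genes that express the mitochondrial genome were lower. These shares rest on few genes, so the genes named are not read as a trait of their lists. Cytochrome c (Cycs), the carrier between complexes III and IV, had 877, 499 and 963 normalized counts in AThi, against 1238, 1543 and 1665 in ATlo and 1102 and 1248 in young HSCs. It was the one gene lower among 20 carriers and coenzyme Q genes (log2 fold change -0.93, SE 0.26, adjusted p 0.0080, authors' deposited table). Coq8a, a kinase-like protein of coenzyme Q synthesis, and Sqor, which feeds electrons from sulfide to coenzyme Q, were the 2 higher (0.72 and 0.86, adjusted p 0.0011 and 0.016, authors' deposited table, DESeq2). Of 46 other assembly factors 1 was lower, Uqcc2 of complex III, and 0 higher. Of 35 genes that express the mitochondrial genome 3 were lower, Elac2, Fastkd3 and Rexo2, and 0 higher, while Tfam, which packages and activates mitochondrial DNA, had a log2 fold change of -0.15 (adjusted p 0.70) in the authors' deposited table by DESeq2. Of 22 mitochondrial RNAs that code for no protein 0 passed.

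Among 11 activators of nuclear respiratory genes, Ppargc1a, the coactivator PGC-1alpha, was higher in AThi and the other 10 did not pass (all tested genes: 3.47% higher). Ppargc1a is read here as a single gene. It had 959, 291 and 245 normalized counts in AThi, against 89.6, 69.9 and 18.7 in ATlo and 179 and 224 in young HSCs. Every AThi library lay above the rest. Its log2 fold change was 3.07 (SE 0.62, adjusted p 5.3e-05, authors' deposited table), opposite in sign to the nuclear subunits. Nrf1 and Gabpa, the factors of the motifs shown above, had log2 fold changes of -0.22 and -0.08 in the authors' deposited table and did not pass (adjusted p 0.67 and 0.86, DESeq2).

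Several other measures moved with the old fractions beside the nuclear subunits. Of 20 cell cycle genes, 19 were lower in AThi in the authors' deposited table with a median log2 fold change of -1.27, and the list summed to 63386 to 78927 normalized counts in AThi, 152977 to 176561 in ATlo and 108165 and 128374 in young HSCs, the same order of groups as for the subunits. Transcript length moved with the fold change too, among the 12749 of 17908 tested genes that have a protein-coding transcript length. Of those with transcripts under 700 bases, 15.2% were lower in AThi with a median of -0.21. The medians were -0.12, -0.09, 0.01 and 0.09 from 700, 1000, 2000 and 4000 bases on. Nuclear subunits are short, with a median of 745 bases against 2681 for all tested genes with a length. In the same length bins they lay lower than all genes with a length. Of the subunits, 15 of 34 were called lower under 700 bases (44.1%, median -0.41). From 700 to 1000 bases it was 6 of 17 (median -0.33) and from 1000 to 2000 bases 4 of 19 (median -0.34). The part of either measure in the result was not tested.

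**Figure D5:**
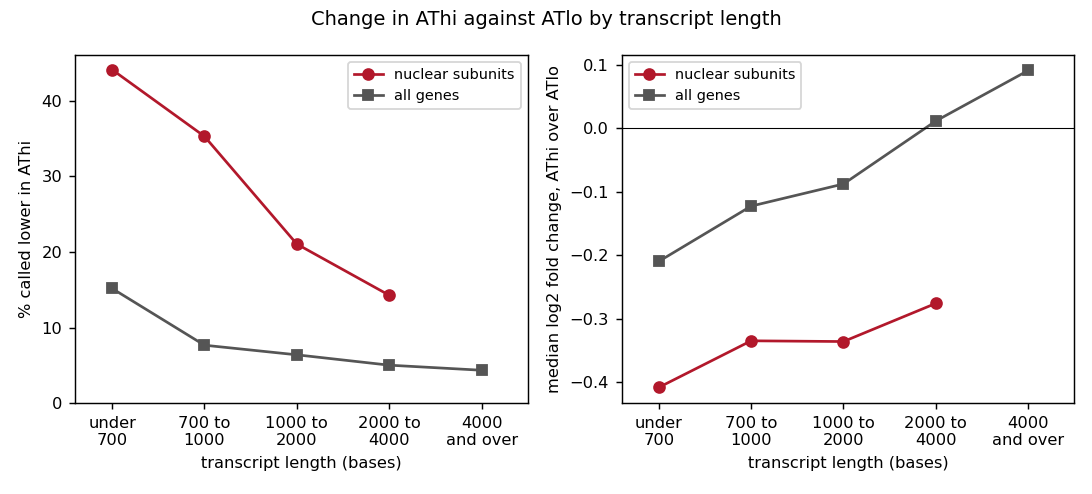
Share of genes called lower in AThi against ATlo (left, %) and median log2 fold change (right) by transcript length, from the authors' deposited table. Lines are nuclear subunits (34, 17, 19 and 7 genes per bin, none of 4000 bases and over) and all tested genes with a protein-coding transcript length. All genes go from a median of -0.21 under 700 bases to 0.09 at 4000 bases and over, and the subunits lie below them in each bin.

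Set beside 3 other groups of housekeeping genes, taken by symbol after the members' values were known, the proteasome had values close to those of the nuclear subunits. Of its 39 subunits, 8 were lower in AThi in the authors' deposited table (median log2 fold change -0.34) as were 8 of 78 mitochondrial ribosomal proteins (median -0.30), against 1 of 86 cytosolic ribosomal proteins (median -0.02). None of the 3 groups had a gene higher, where 4.43% of all tested genes were lower and 3.47% higher. The difference of the respiratory chain from these groups was not tested.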

How the data were processed

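Bulk RNA of 8 HSC libraries was measured, and all libraries were prepared together with the NuGen Ovation Trio kit as paired 50-base reads, per the labels' protocols. Per the submitters' processing notes the tools were STAR, featureCounts, DESeq2, FastQC and MultiQC on GRCm38; no source used here gives their versions, the annotation or the strand setting. The deposited tables give, for 3 contrasts, the authors' log2 fold change, its standard error, Wald score, p-value (raw and adjusted) and mean signal, and a normalized signal per library (read counts divided by 1 factor per library). Scaled back by that factor, 100% of values were whole reads (tolerance 0.01). Calls are the authors' adjusted p below 0.05.

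Alternatives were a DESeq2 1.42.0 refit with other scalings, with libraries left out or with the mouse as a replicate block, and edgeR 4.0.16 in R 4.3.3, tested on simulated data first. The labels call the AThi and ATlo samples paired and the column tags match across fractions; deviations of libraries with the same tag correlated at 0.063, 0.054 and 0.179, and of different tags at -0.098 to 0.030. Columns were matched to groups only. No 2 libraries of a group agreed within sampling noise. Reads carry no molecular identifiers, so read totals describe counting error only. The p-values measure the spread between these libraries, and the deposited fit has no term for the mouse. Gene positions, transcript lengths and shared 50-base windows came from GENCODE vM21 (GRCm38), which matched all 107 members, and promoters from RefSeq. Members and gene lists were chosen with earlier results of these data known. The genes named were the mitochondrial genes, members called in any contrast, a fixed list of catalytic and core subunits and of paralogue pairs, and the members with the largest rise and fall. One member and one marker gene are not reported here by name.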

Additional observations from a re-analysis of the deposited data

How the results depend on the processing

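Picked from these same libraries, the 28 members lower in AThi against ATlo all stayed below zero in every alternative run. The count was 24 without independent filtering, 29 with a base mean of 100 or more, 26 with TMM factors, 28 with total reads, 20 in the 6 old libraries alone, 24 with the replicate block in DESeq2, 9 to 19 with 1 library left out and 6 without the 3 libraries tagged 12. The counts by library left out were 15 without AThi O10, 12 without AThi O11, 17 without AThi O12, 12 without ATlo O11 and 9 without ATlo O12. edgeR called 2, also 2 without a filter on low counts, 2 with the replicate block and 1 in the 6 old libraries without it, which was added after the data were seen. Members higher were 0 in the deposited table, 1 with the replicate block in DESeq2 and 0 to 1 with 1 library left out, the 1 being Cox7a2l. The median of nuclear subunits moved beyond its spread with total reads, to -0.43. In AThi against young, members lower were 0 with total reads, 0 without the tagged 12 libraries, 0 by edgeR with or without a filter, and 0 to 2 with 1 library left out (0 without AThi O10, AThi O11, young D11 or young D12, and 2 without AThi O12). In ATlo against young, members higher were 6 with total reads, 1 without the tagged 12 libraries, 0 by edgeR with or without a filter and 0 to 3 with 1 library left out (1 without ATlo O11 or ATlo O12, and 0 without young D11), and the nuclear median was 0.29 with total reads and 0.30 without the tagged 12 libraries. The replicate block changed no other count named here by more than 1.5 times. The causes were not tested. Low rows such as the 5 paralogues under 100 normalized counts, and the mitochondrial rows split with nuclear copies, limit what their fold changes show.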
